A study of Ovis aries with 6 samples.

Results

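The subject is 435 CpG-rich windows of the sheep genome that were intermediately methylated in every animal studied. They are fixed 1 kb windows of autosomes 1 to 26 with at least 20 CpGs that have 5 or more reads in each of the 6 samples (used CpGs below), and with a methylation level from 35% to 65% in each sample. The level is the number of reads that still show C after bisulfite treatment over all reads, summed over the used CpGs of the window. Of 10711 windows with at least 20 used CpGs (CpG-rich windows below), 4.06% met the rule, and merging adjacent windows left 429 regions. The samples are genomic DNA of perirenal adipose tissue, the fat around the kidney, from pure bred Merino sheep labelled wild type and untreated, sequenced by whole-genome bisulfite sequencing. For the 3 lambs the sample labels give an age of 89 days and the series design text 80 days after birth, and the tissue is called white adipose. The 3 fetal animals had reached 132 days of gestation, with term at 150 days, and their tissue is called brown adipose. Sample descriptions end in VEH for each lamb and in TV for each fetal animal, so the tags and the stage cannot be told apart. All positions are on the build Oar_v3.1, and no gene annotation or genome of that build was used here, so windows are given by position and the tissue labels were not checked against marker genes.

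Most CpG-rich windows of mammals are either unmethylated, as at active promoters, or fully methylated. A lasting intermediate level is known from imprinted regions, where the allele from 1 parent is methylated and the other is not, and from alleles that differ in sequence. It can also arise when cells of a tissue differ from each other, when a window spans the border between an unmethylated and a methylated stretch, or when copies of a repeat that differ in methylation are mapped to a single place. The deposited counts are sums over reads per CpG, so the state of single molecules or alleles was not tested.

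Reads over CpG positions totalled 209550245, 136938075 and 146582297 in lambs 1 to 3, and 195240369, 140953569 and 172812174 in fetal animals 1 to 3, with 1 sequencing lane each. On autosomes a CpG had on average between 5.22 reads (lamb 2) and 8.00 reads (lamb 1). An intermediate window carried a median of 202 reads per sample, from 114 to 15965. The 95% Wilson interval of a window's level in a single sample had a median size of 6.75 points to either side. A read is counted at each CpG it covers, so such intervals are too narrow and cover counting error only.

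CpG-rich windows fell into a low and a high group, and the intermediate windows lay between them. Of the 10711 windows, 42.9% had a mean level below 35%, 47.5% had one above 65%, and 1026 windows, 9.58%, had one from 35% to 65%. Of these 1026, 435 stayed within the range in each of the 6 samples and 591 had at least 1 sample outside it. The mean levels of the 435 windows ran from 38.5% to 62.8%, with a median of 50.8%. The windows were chosen by these levels, which are therefore a description with no test. The highest and lowest of the 6 samples of a window lay a median of 13.5 points apart, where the rule allows at most 30 points.

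**Figure D1:**
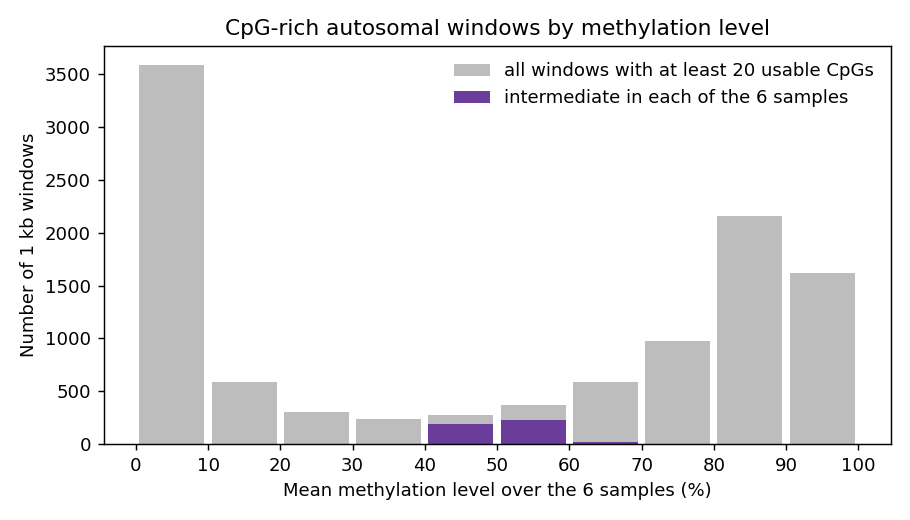
Number of CpG-rich 1 kb windows (y axis) by mean methylation level over the 6 samples (x axis, in steps of 10%), with all 10711 windows in grey and the 435 intermediate windows drawn in front in purple. The grey bars are highest below 10%, with 3586 windows, and from 80% to 90%, with 2155 windows, and the purple bars hold 187 windows from 40% to 50% and 228 windows from 50% to 60%.

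A window level near 50% came about in different ways along the CpGs of a window. With reads summed over the 6 samples at each used CpG, 134 windows, 30.8%, were flat, meaning that at least 80% of their CpGs had a level from 25% to 75%. Another 175 windows, 40.2%, were stepped, meaning not flat and with a point in the window where the CpGs on the left and on the right, at least 5 on each side, differed by at least 40 points. The remaining 126 windows were mixed. In flat windows 90% of 3260 CpGs were themselves intermediate, 3.80% were below 25% and 6.20% were above 75%. In stepped windows 42.1% of 4232 CpGs were intermediate, 28.3% were below 25% and 29.6% were above 75%. The low side of a stepped window had a median level of 24.1% and the high side a median of 80.7%, and the left side was the lower one in 89 of 175 windows. Over all CpG-rich windows 17.3% of CpGs were at an intermediate level. Among the 591 windows of intermediate mean with a sample outside the range, 25.0% were flat, 32.8% stepped and 42.1% mixed. The share of flat windows depends on its limits, and was 16.3% with a CpG range of 30% to 70%.

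**Figure D2:**
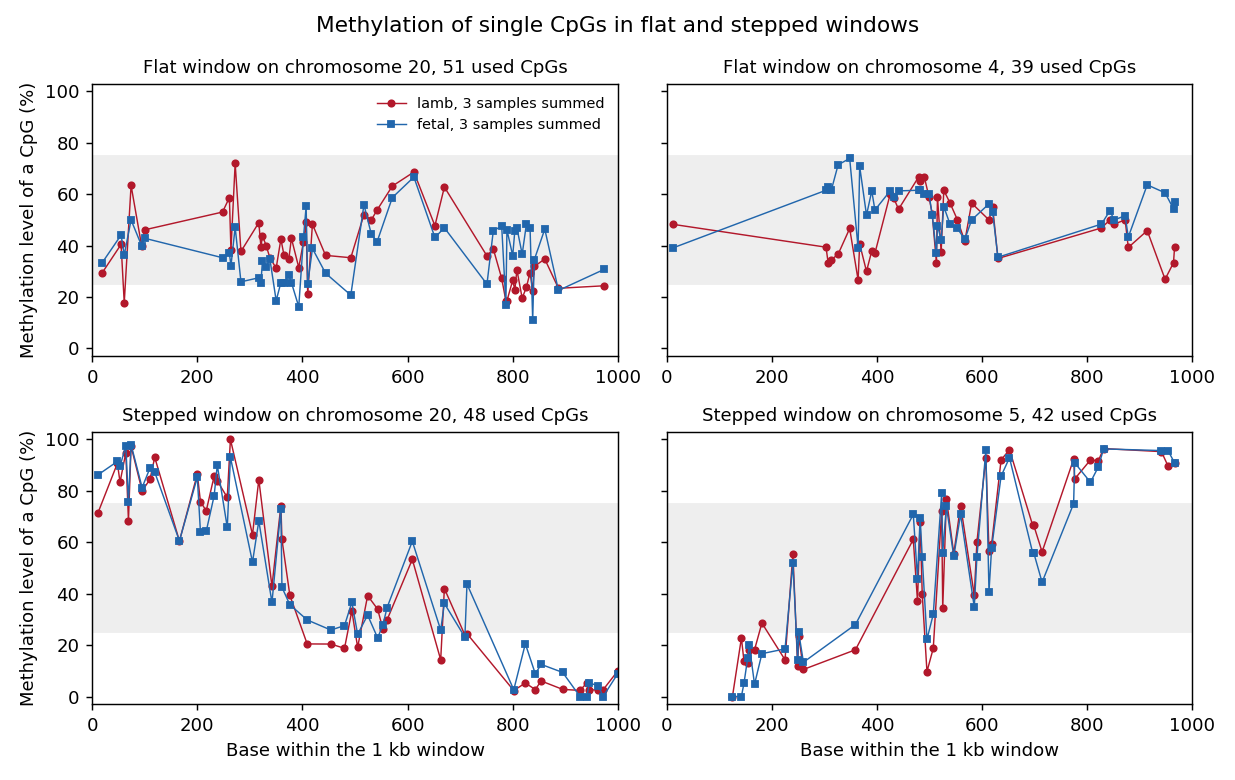
Methylation level of single used CpGs (y axis, %) against their base in the 1 kb window (x axis), with reads summed over the 3 lambs (red circles) and over the 3 fetal animals (blue squares), in 2 flat windows (top) and 2 stepped windows (bottom); the grey band runs from 25% to 75%. In the flat window on chromosome 4 each of the 39 CpGs lies in the band when both stages are summed, and in the stepped window on chromosome 5 the level goes from 18.2% left of the step to 66.8% right of it.

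The flat windows with the most used CpGs included places of very different coverage. The window on chromosome 1 from 110957001 to 110958000 had 75 used CpGs, and its level was 56.8%, 49.2% and 58.6% in lambs 1 to 3 and 57.2%, 62.2% and 55.0% in fetal animals 1 to 3. It carried 913 reads per CpG over the 6 samples, 23.9 times the autosomal mean, and the part of this excess in the level was not tested. Such ratios are taken over all listed CpGs of a window, used or not, while reads per CpG are over used CpGs. On chromosome 4 the window from 68873001 to 68874000, with 39 used CpGs, had 1.36 times the autosomal mean. Its level was 39.8%, 50.4% and 48.5% in the lambs and 54.9%, 62.0% and 46.5% in the fetal animals, so the stages overlapped. Each of its 39 CpGs was intermediate, and the best split gave sides of 47.1% and 51.2%. Its unadjusted p for lambs against fetal animals was 0.0162 (quasi-binomial model with limma's moderation). At the 23 CpGs that the coverage minimum kept out, lambs were at 27.3%, 38.7% and 38.0%. The fetal animals were at 51.0%, 57.0% and 56.6% there, so the stages did not overlap at those CpGs. The other 3 lie on chromosome 20, from 50394001, 50449001 and 50433001, with 51, 40 and 37 used CpGs. Their coverage was 2.29, 2.11 and 1.82 times the autosomal mean. The window from 50394001 had the lowest level, at 36.3%, 41.6% and 41.7% in the lambs and 39.6%, 36.3% and 35.8% in the fetal animals.

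In the 5 stepped windows with the most used CpGs the low side was at 18.2% to 37.6% and the high side at 66.8% to 85.7%. On chromosome 5, the window from 12511001 to 12512000 was at 52.5%, 54.3% and 56.2% in the lambs and 51.9%, 52.6% and 56.4% in the fetal animals, so the stages overlapped. Its left 13 CpGs were at 18.2% and the rest at 66.8%. On chromosome 14, from 34138001 to 34139000, the left 17 of 39 used CpGs were at 79.9% and the others at 24.6%. The window listed 114 CpGs, and the 75 that the coverage minimum kept out were at 27.8%, far from the level that chose the window. On chromosome 20, the window from 50392001 to 50393000 had sides of 81.0% and 24.5%. There fetal animal 1 was at 58.4% while the other fetal animals were at 39.7% and 38.8%, and the lambs were at 41.0%, 46.3% and 47.2%. The windows on chromosome 20 from 50531001 and from 50536001 had sides of 23.3% and 85.7%, and of 83.6% and 37.6%. Coverage of the windows on chromosome 20, in the order given, was 2.24, 2.20 and 2.08 times the autosomal mean.

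The same windows can be read at CpGs that the coverage minimum kept out of the rule, those with under 5 reads in at least 1 sample. There were 7997 such CpGs, and 408 of the 435 windows had at least 10 reads on them in each sample. Read pairs can span both kinds of CpG, so the reads are not fully separate. At these CpGs the windows averaged 51.5%, 52.2% and 51.3% in lambs 1 to 3 and 51.2%, 51.1% and 50.6% in fetal animals 1 to 3. The mean level was again from 35% to 65% in 286 windows, 70.1% of the 408, against 58.1% of 573 windows of intermediate mean with a sample outside the range and 10.96% of 10457 CpG-rich windows, measured in the same way. All 6 samples were within the range in 123 windows, 30.1%, against 20.2% of those 573 windows and 3.51% of the CpG-rich windows. The kinds of window differed in this. The mean stayed in the range in 108 of 125 flat windows, 86.4%, in 96 of 169 stepped windows, 56.8%, and in 82 of 114 mixed windows, 71.9%. The median distance between the 2 readings was 5.36 points in flat windows, 12.03 points in stepped windows and 7.39 points in mixed windows. These shares are counts over windows, and no test was made of their differences.

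**Figure D3:**
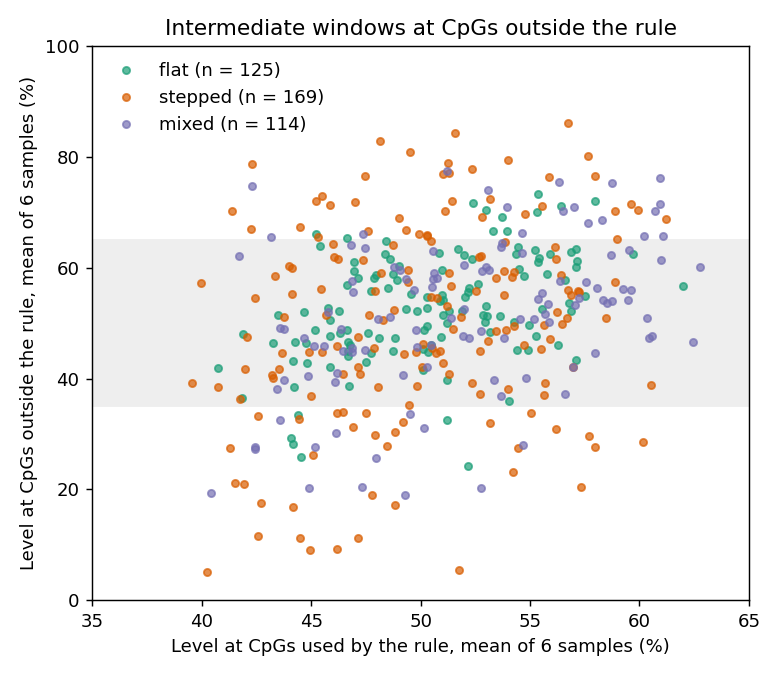
Mean level over the 6 samples at the CpGs outside the rule (y axis, %) against the mean level at the used CpGs (x axis, %), a point per intermediate window with enough reads, coloured by kind (125 flat, 169 stepped, 114 mixed); the grey band marks 35% to 65%. Flat windows lie mostly in the band, with 108 of 125 inside it, and stepped windows reach from near 5% to over 80%.

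On average the surroundings of the intermediate windows were more methylated than the windows, but most single windows did not have high levels on both sides. Windows within 5 kb to either side averaged 70.3% ± 0.652 in lambs and 69.6% ± 0.163 in fetal animals (SD, n = 3 each). Windows 6 to 10 kb away averaged 71.7% ± 0.603 in lambs and 71.0% ± 0.194 in fetal animals. The neighbour right beside the region was lower, at 65.7% ± 0.484 in lambs and 65.1% ± 0.251 in fetal animals, and 28.0% of 707 such neighbours had a mean level from 35% to 65%, 12.02% were below it and 59.97% above it. The flanks of stepped windows at that distance were at 64.0% in lambs and 63.5% in fetal animals, and those of flat windows at 66.8% in lambs and 66.7% in fetal animals. Both neighbours could be measured for 87 flat windows, and both were above 65% for 31 of them, while 7 had a neighbour below 35% on 1 side and above 65% on the other. For stepped windows the corresponding counts were 38 and 34 of 120, and for mixed windows 30 and 9 of 82. No flat or stepped window, and 3 of 82 mixed windows, had both neighbours below 35%.

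**Figure D4:**
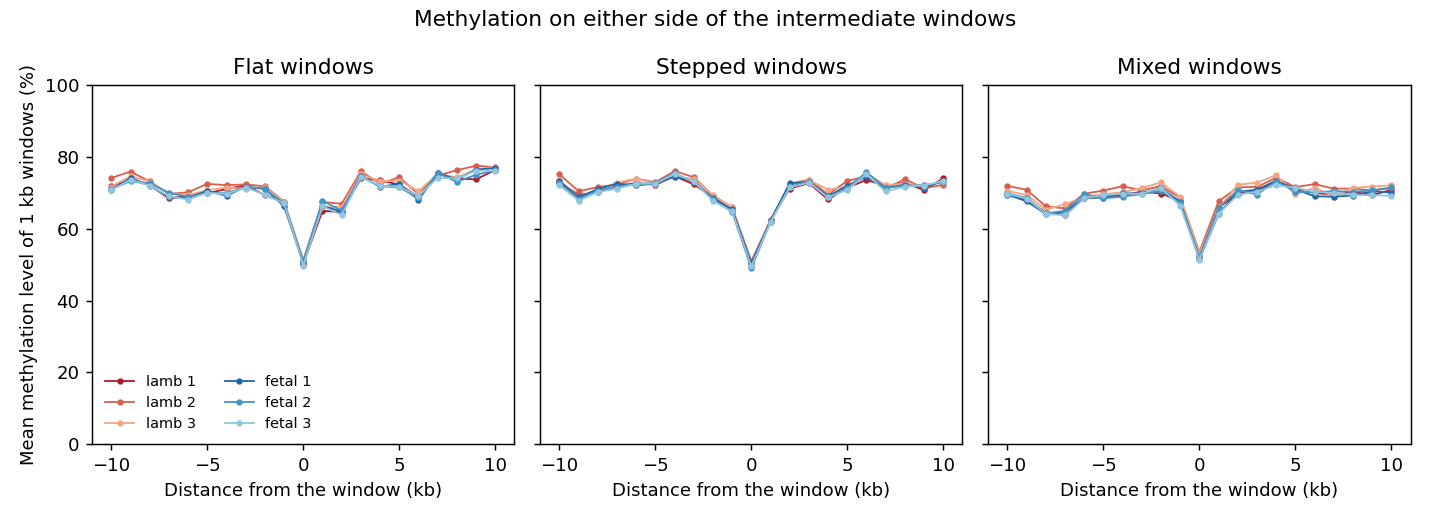
Mean methylation level of 1 kb windows (y axis, %) against distance from the intermediate window (x axis, kb; 0 is the window itself, negative values lie on its left), for flat, stepped and mixed windows, with a line per sample (lambs in red shades, fetal animals in blue shades). The lines of the 6 samples run close together, near 70% on both sides, and drop at 0 to the level that chose the windows.

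Intermediate methylation went on beyond the window at 14 of the 87 flat windows with both neighbours measured. Their left and right neighbours were both at a mean of 35% to 65%. The same was found for 8 of 120 stepped and 10 of 82 mixed windows, so it was not particular to flat windows. The 14 were singled out after their values were seen, and their neighbours ran from 40.01% to 64.98%. At the CpGs outside the rule, 12 of the 13 that could be measured were again in the range, against 86.4% of all flat windows measured there. The 1 of the 14 with the narrowest range over the samples lies on chromosome 13 from 56842001 to 56843000, with 24 used CpGs that were each intermediate. Its level was 47.2%, 49.7% and 46.7% in lambs 1 to 3 and 50.7%, 47.9% and 46.3% in fetal animals 1 to 3, so the stages overlapped. Its neighbours were at 41.2% and 48.0%, the CpGs outside the rule at 47.4%, and its coverage was 1.05 times the autosomal mean. On chromosome 26 the window from 38852001 to 38853000 was at 42.6%, 47.7% and 40% in the lambs and 43.4%, 43.1% and 43.9% in the fetal animals, with neighbours at 45.3% and 55.2%. On chromosome 21 the window from 43673001 to 43674000 was at 52.7%, 46.0% and 43.0% in the lambs and 59.4%, 52.4% and 48.2% in the fetal animals, with neighbours at 58.5% and 44.3%. The flat window on chromosome 4 from 68873001 also belongs here, with neighbours at 52.0% and 53.9%. Its CpGs outside the rule averaged 34.7% in lambs and 54.9% in fetal animals. Coverage was 4.18 times the autosomal mean in the window on chromosome 17 from 70167001, and a median of 1.36 times over the 14.

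Runs of adjacent intermediate windows were few: 424 regions were a single window and 5 joined several. The longest lies on chromosome 20 from 50397001 to 50400000, with 3 windows and 87 used CpGs. It was at 51.2%, 53.2% and 51.3% in lambs 1 to 3 and 59.4%, 56.5% and 60.2% in fetal animals 1 to 3, so the lambs lay below the fetal animals. On the same chromosome, the regions from 50586001 to 50588000 and from 50448001 to 50450000 were at 50.3% ± 1.62 and 57.2% ± 1.14 in lambs and at 52.3% ± 2.22 and 55.2% ± 3.78 in fetal animals (SD, n = 3 each). The region on chromosome 16 from 70984001 to 70986000 was at 55.0% ± 1.39 in lambs and 55.5% ± 3.04 in fetal animals. The region on chromosome 3 from 1685001 to 1687000 was at 47.1% ± 2.08 in lambs and 44.4% ± 2.75 in fetal animals (SD, n = 3 each). Reads per CpG over the 6 samples were 77.9, 79.0 and 79.6 in the regions on chromosome 20, in the order given. They were 49.8 on chromosome 16 and 55.1 on chromosome 3.

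The windows were spread over 25 of the 26 autosomes, with a dense group near the end of chromosome 20. Chromosome 18 had the highest share of its CpG-rich windows in the set, 19 of 308, or 6.17%, and chromosome 25 had 0 of 111. On chromosome 20, 17 regions with 21 windows lay between 50388001 and 50588000, each within 100 kb of the next, among 166 CpG-rich windows. Those 21 windows, 8 of them flat, had a median coverage of 2.11 times the autosomal mean, against 1.29 times over all intermediate and 1.25 times over all CpG-rich windows. Windows within 5 Mb of the last listed CpG of a chromosome made up 42.5% of the intermediate and 33.1% of the CpG-rich windows. Coverage above 153 reads per CpG over the 6 samples, which is 3 times the median of usable CpGs, was found in 14 intermediate windows, 3.22%, and in 0.896% of CpG-rich windows. Of the 14, 10 were mixed, 3 flat and 1 stepped. Without CpGs above that coverage 420 windows met the rule.

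Nearly all intermediate windows touched a region that the authors had listed as low in methylation. Of the 429 regions, 98.6% overlapped by at least 1 base an unmethylated region (UMR) or a low-methylated region (LMR) of either stage, against 90.7% of the 591 windows of intermediate mean with a sample outside the range and 58.9% of CpG-rich windows. LMRs, listed stretches of reduced methylation, were met by 76.9% of the regions, against 69.7% of those 591 windows and 14.5% of CpG-rich windows. UMRs were met by 37.5% of the regions, against 38.4% of the 591 windows and 47.0% of CpG-rich windows. With at least 50% of the region required to lie within a single list, 36.4% of the regions met a UMR or LMR list of either stage. No share of the 591 or of CpG-rich windows is given for this limit. For LMRs alone the share was then 20.7%, and for UMRs alone 17.7%. Among the kinds of window, 91.8% of flat, 60% of stepped and 84.9% of mixed windows overlapped an LMR, and 34.3%, 50.3% and 22.2% a UMR. DNA methylation valleys, long unmethylated stretches, were met by 3 regions, 0.699%, against 5.63% of CpG-rich windows. The authors' differentially methylated regions were met by 3 regions, 0.699%, against 1.02% of the 591 windows and 0.308% of CpG-rich windows, 1 of the hyper and 2 of the hypo list. The hyper one lies at the window on chromosome 20 from 49317001 to 49318000, named after its values were seen, which was at 57.1%, 58.7% and 59.0% in lambs and 55.4%, 46.1% and 45.9% in fetal animals (unadjusted p = 0.0125, quasi-binomial model with limma's moderation). The lists come from the same animals, 1 list per stage, and were made for low levels or for differences, so they are not independent of the values here.

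The comparison of lambs with fetal animals asks whether methylation of these windows differs between the white and the brown stage of the depot. Over the 435 windows the mean level was 50.7%, 51.8% and 51.4% in lambs 1 to 3 and 50.7%, 50.5% and 50.1% in fetal animals 1 to 3. The stages averaged 51.3% ± 0.562 in lambs and 50.4% ± 0.282 in fetal animals (SD, n = 3 each), 0.839 points apart, with the lowest lamb and the highest fetal animal both at 50.7%. Over all CpG-rich windows the mean was 48.3% ± 0.411 in lambs and 47.9% ± 0.137 in fetal animals (SD, n = 3 each). The mean was higher in lambs in 57.0% of intermediate and 56.2% of CpG-rich windows. Each window was tested with a quasi-binomial model fitted to all 842571 autosomal windows with at least 3 used CpGs, with limma's moderation of the dispersion, two-sided. None of the 435 windows reached an adjusted p under 0.05 with a difference of at least 10 points, where 0% of all windows did, and limma's own test gave 0 as well. An unadjusted p under 0.05 was found for 72 intermediate windows, 16.6%, against 11.3% of CpG-rich windows and 6.11% of all windows. Among the 591 windows of intermediate mean with a sample outside the range it was found for 161, 27.2%, and the rule limits how far the samples of an intermediate window can differ. Before moderation the median dispersion was 1.99 in intermediate, 3.41 in those 591 and 1.58 in CpG-rich windows. Moderation draws it toward a prior of 1.28 fitted over all windows, which lowers such values. The part of this in the shares was not tested. With limma on log2 ratios of methylated over unmethylated reads, an unadjusted p under 0.05 was found for 3 of the 435 windows. No share of CpG-rich or of all windows is given for limma, so this count has no background to be read against. Lambs were higher in 45 of the 72, 10.3% of the set against 6.82% of CpG-rich and 3.52% of all windows, and lower in 27, 6.21% against 4.48% and 2.6%. Among the 591 windows of intermediate mean these shares were 17.3% with lambs higher and 9.98% with lambs lower. The samples of the stages did not overlap in 43 windows with lambs higher, 9.89% against 7.51% of CpG-rich and 6.12% of all windows. They did not overlap in 29 windows with lambs lower, 6.67% against 4.59% and 4.55%. Both directions together gave 16.6% against 12.1% of CpG-rich and 10.7% of all windows. Among the 591 windows of intermediate mean the shares without overlap were 10.2% with lambs higher, 4.57% with lambs lower and 14.7% together. An unadjusted p under 0.05 was found for 34 flat windows, 25.4%, 21 stepped windows, 12%, and 17 mixed windows, 13.5%, and the difference between the kinds was not tested.

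With the adjustment made over the 10711 CpG-rich windows alone, 4 intermediate windows, 0.920%, had an adjusted p under 0.05 and at least 10 points, against 1.18% of the 591 windows of intermediate mean with a sample outside the range and 31 or 0.289% of CpG-rich windows (quasi-binomial model with limma's moderation). All 4 were flat, and 3 of them were lower in lambs. Their best splits gave sides of 45.0% and 80.9% on chromosome 1, and of 57.1% and 49.8% on chromosome 17. On chromosome 20 the sides were at 41.4% and 59.4%, and on chromosome 22 at 30.2% and 56.4%. The window on chromosome 1 from 271586001 to 271587000 was at 38.2%, 50.9% and 37.7% in lambs 1 to 3 and 58.4%, 63.2% and 64.6% in fetal animals 1 to 3. The lambs lay below every fetal animal, by -19.8 points between the means (adjusted p = 0.0135 over CpG-rich windows and 0.329 over all windows). At its 10 CpGs outside the rule the means were 44.6% in lambs and 66.8% in fetal animals, but lamb 2 at 58.0% stood above fetal animal 1 at 50.7%. It overlaps a region of the authors' hypo list, which was made on these animals.

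Lower in lambs as well, the window on chromosome 17 from 64720001 to 64721000 was at 40.2%, 39.7% and 44.1% in lambs and 53.4%, 61.3% and 63.0% in fetal animals, a difference of -17.9 points (adjusted p = 0.0266 over CpG-rich windows and 0.431 over all, with limma's moderation). It also overlaps a hypo region, and its 12 CpGs outside the rule averaged 47.6% in lambs and 61.8% in fetal animals, without overlap. The window on chromosome 20 from 50399001 to 50400000, part of the longest run, was at 47.4%, 55.2% and 51.2% in lambs and 64.2%, 60.6% and 64.1% in fetal animals, a difference of -11.7 points. Its coverage was 2.27 times the autosomal mean, and the part of this in the difference was not tested. At its 4 CpGs outside the rule the stages overlapped, at 50.7%, 66.1% and 50% in lambs and 62.8%, 66.7% and 63.9% in fetal animals. With limma on log2 ratios its unadjusted p was 0.108, against 0.0178 to 0.0318 for the other 3 of the 4 windows. The window on chromosome 22 from 47339001 to 47340000 was the 1 of the 4 with the higher level in lambs, at 51.7%, 57.5% and 59.9% in lambs and 40.4%, 41.5% and 36.7% in fetal animals, a difference of 16.8 points. Its 12 CpGs outside the rule averaged 67.3% in lambs and 50.2% in fetal animals. The adjusted p of the last 2 windows was 0.0266 and 0.0353 over CpG-rich windows, and 0.408 and 0.466 over all windows.

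The smallest p of the set belonged to a window of very high coverage and small difference. On chromosome 23 from 85001 to 86000 the level was 47.0%, 46.5% and 43.8% in lambs and 39.3%, 39.2% and 38.8% in fetal animals, a difference of 6.65 points (unadjusted p = 1.99e-07, adjusted p = 0.0981 over all windows, quasi-binomial model with limma's moderation). It carried 776 reads per used CpG over the 6 samples. Over all its 43 listed CpGs, used or not, coverage was 11.3 times the autosomal mean. With limma on log2 ratios its unadjusted p was 0.334 and its adjusted p over all windows 0.939. At its CpGs outside the rule the lambs were at 58.1%, 20.2% and 17.0% and the fetal animals at 27.4%, 22.0% and 21.5%, so lamb 1 alone was high there. The other windows named for their p had higher levels in lambs by 14.5 points on chromosome 23 from 1099001, 12.5 points on chromosome 6 from 69614001 and 11.3 points on chromosome 18 from 9678001. They had lower levels in lambs by -15.5 points on chromosome 3 from 9556001 and by -14.1 points on chromosome 4 from 118349001. In the last 2 the CpGs outside the rule did not follow, with differences of 2.12 and -1.24 points. Over the 68 windows with an unadjusted p under 0.05 and enough reads at those CpGs, the sign of the difference was the same there in 58, or 85.3%, against 62.5% of all 408 windows. The 68 were chosen by their difference in the same animals and are part of the 408. Read pairs can also span both kinds of CpG, so no conclusion on the stages is drawn from these shares.

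**Figure D5:**
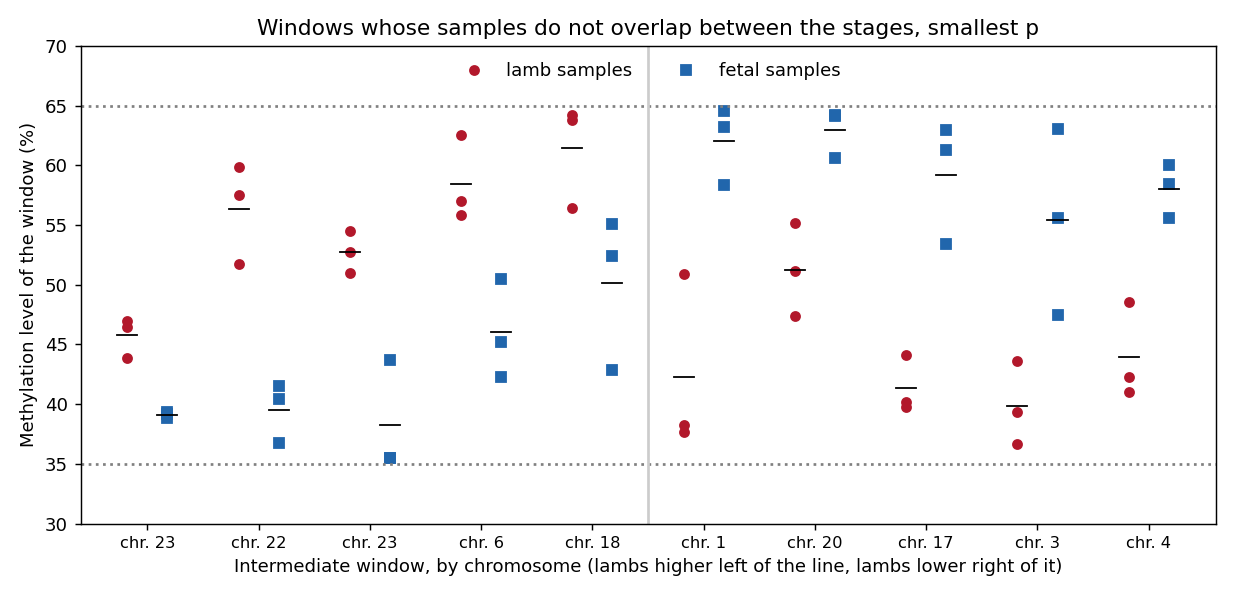
Methylation level per sample (y axis, %) in the 5 intermediate windows per direction with the smallest p among those without overlap between the stages, lambs as red circles on the left and fetal animals as blue squares on the right of each pair, with black bars for the means (n = 3 each) and dotted lines at 35% and 65%. The differences run from 6.65 to 16.8 points with lambs higher and from -19.8 to -11.7 points with lambs lower, and the rule keeps every point between the dotted lines.

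The range of 35% to 65% divides windows that differ little. Just inside its lower end, the window on chromosome 3 from 1541001 had lamb 1 at 35.03% and the window on chromosome 24 from 41755001 had fetal animal 3 at 35.09%. Just outside it, the windows on chromosome 17 from 66793001 and on chromosome 21 from 49533001 each had a lowest sample at 34.97%. Just inside the upper end, the highest samples were at 65% on chromosome 4 from 116933001 and at 64.98% on chromosome 15 from 122001. Just outside it they were at 65.02% on chromosome 11 from 42710001 and at 65.03% on chromosome 3 from 1643001. A coverage minimum of 3 reads gave 6674 regions and one of 8 reads gave 33. Leaving out a sample lifts both its coverage and its level limits, and gave 1518 regions without lamb 2, 1331 without lamb 3 and 996 without fetal animal 2.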

How the data were processed

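Whole-genome bisulfite libraries of 6 animals, 3 lambs and 3 fetal animals, were analysed from the table deposited by the authors, which holds raw counts of methylated and covering reads at 26377052 CpG positions, 24936679 of them on autosomes. Columns were matched to animals by the sample descriptions. Reads were mapped to Oar_v3.1 per the series design text. BWA and Picard are named without a role per the submitters' processing notes, which also name hg19 beside Oar_v3.1, and they name no methylation caller. The authors also deposited lists of regions, as positions only.

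Members and lists were chosen with earlier results of these data known. Levels are methylated over covering reads, summed over used CpGs. The test was a quasi-binomial model of methylated against unmethylated reads with stage as the only term, with dispersion moderated as in limma's squeezeVar (prior 1.28 with 14.2 degrees of freedom), not allowed below 1, and Benjamini-Hochberg adjustment over all windows. It was tested on simulated data. Windows were named as the 10 regions of most windows, the 5 flat and 5 stepped windows with most used CpGs, the 5 per direction with the smallest p without overlap, and the 2 nearest to each end of the range on either side; windows named outside this rule are said to be. Flank levels are means over windows with at least 3 used CpGs. The minimum of 10 reads at CpGs outside the rule was chosen after seeing the data. Alternatives were coverage minimums, ranges, CpG numbers, shifted windows, equal weights, limma, a replicate block and each sample left out. Python 3.11.15, numpy 2.4.6, scipy 1.17.1, pandas 2.3.3, R 4.3.3 and limma 3.58.1 were used.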

Additional observations from a re-analysis of the deposited data

Results flagged for a closer look

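The X chromosome was kept out of the rule and of each comparison above, and is given here because windows like those described were also found on it. Of its 294 CpG-rich windows 16 met the same limits, 5.44% against 4.06% on the autosomes, a difference that was not tested. Of these, 9 were flat, 6 mixed and 1 stepped. They averaged 49.3%, 49.2% and 47.6% in lambs 1 to 3 and 50.9%, 49.0% and 48.1% in fetal animals 1 to 3. A mean level from 20% to 40% was found in 94 CpG-rich windows of X, 32.0%, against 5.09% of those on autosomes. Coverage of X over the autosomal mean was 0.936, 0.947 and 0.959 in lambs 1 to 3 and 0.927, 0.899 and 0.887 in fetal animals 1 to 3. Sex is not in the labels, and its part in these levels was not tested.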

How the results depend on the processing

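The number of regions, 429, follows the limits of the rule: it was 6674 and 33 with minimums of 3 and 8 reads, 134 and 788 with ranges of 40-60% and 30-70%, 1562 and 44 with at least 15 and 30 usable CpGs, and 562 to 1518 without a sample, since more or fewer windows then qualify. Windows with an unadjusted p under 0.05, 72 at first, numbered 1054, 6, 15, 162, 223 and 8 under the first 6 of these settings, 79 to 243 without a sample, 60 to 79 without a sample over the 435 windows, and 3 with limma. Calls were counted over the 435 windows only, and not under settings that choose other windows. None of the 435 was called with a replicate block, limma, no lower limit on the dispersion, a sample left out or no minimum difference. With adjustment over CpG-rich windows 4 were called. The mean difference of 0.839 points was 0.202 with the range of 40-60%, 0.408 with windows shifted by 500 bases, 0.411 without lamb 3, 0.557 without lamb 2, and 0.411 to 1.06 over the samples left out. It was 0.371 with reads summed over windows, a setting chosen after seeing the data. The share of windows in range at CpGs outside the rule, 70.1%, was 62.8% and 60% with minimums of 3 and 8 reads, 65.1% with the range of 30-70% and 75% with at least 30 CpGs. The flat share, 30.8%, was 21.4% with a minimum of 3 reads, 16.3% with the CpG range of 30-70%, and 26.2% to 29.3% without a sample. Flanks within 5 kb, at 69.96%, were at 70.7% with a minimum of 3 reads. The overlap with listed low regions, 98.6%, was 36.4% when a single list had to cover 50% of the region. Except where said, the cause was not tested. Replicate numbers name separate animals. Window by window, their deviations from the stage means had correlations of 0.00391 to 0.0104 within a number and of -0.00925 to 0.00179 between numbers. For each animal the highest correlation was the one within its number. Values this small do not decide whether the numbers mark pairs, and the main test used no pairing. With the number as a replicate block, 0 of the 435 windows were called and 63 had an unadjusted p under 0.05, with no share of other windows given beside it. Depth limits the set to windows that every sample covers well.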
